A study of Mus musculus with 2 samples.

Results

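The genes of mitochondrial ribosomal proteins were taken as all protein-coding genes whose symbol starts with Mrpl or Mrps followed by a digit. There were 78 of them among 21559 protein-coding genes and 43346 mouse gene identifiers, and all 78 had values in both gene tables. Poly(A)+ RNA from embryonic day 18 liver of the mouse strain C57BL/6J was sequenced in 2 libraries, numbered by the labels as biological replicates 2 and 1 of a single group. Each library came from pooled male and female littermates, with no genetic alteration or treatment named, and held RNA over 200 nt after depletion of ribosomal RNA, with spike-in RNAs added and stranded read pairs. The design has no contrast between conditions, so the genes were described by level, by agreement of the libraries, by transcript and by promoter, and no p-value is given for any of them.

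Mitochondria keep their own ribosome, which translates the messages of the mitochondrial genome, all of them for membrane subunits of oxidative phosphorylation. Its RNA is made inside the organelle, while its proteins are encoded in the nucleus, made in the cytosol and imported. Some of these proteins have counterparts in all ribosomes, some only in bacteria, and others exist only in mitochondria. In the liver, hepatocytes are rich in mitochondria. The fetal organ is also a site of blood formation, where erythroid cells lose their mitochondria as they mature.

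Replicate 2 held 139889938 expected counts and replicate 1 held 163766625, of which 97.9% and 97.2% fell on mouse genes. An expected count is the authors' estimate of the fragments that came from a gene. Hepatocyte markers, 8 of 8 detected and led by Alb, took 14.9% of all TPM (a transcript level per length, scaled to a fixed total in each library) in replicate 2 and 14.6% in replicate 1, and erythroid markers, 6 of 6 detected, took 9.76% and 10.6%. Both libraries thus carried the defining transcripts of the labelled tissue. The libraries did not hold the same mixture of tissue and cells: 8 pancreas acinar markers summed to 0.9 TPM in replicate 2 and 54.2 TPM in replicate 1, with Prss2 and Pnlip listed at 0 in replicate 2, and 8 striated muscle markers to 8.43 and 19.4 TPM. Neutrophil markers stood higher in replicate 2, at 1.28% of TPM against 0.884% in replicate 1, in 6 of 6 genes. B lymphoid markers stood lower, at 84.1 and 114 TPM, also in 6 of 6.

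All 78 genes reached at least 1 TPM in both libraries, against 53.7% of protein-coding genes. Their median level was 32.1 TPM in replicate 2 and 28.8 TPM in replicate 1, or 30.4 ± 2.39 TPM (SD, n = 2), against 9.16 TPM for the 11576 detected protein-coding genes. By mean TPM the median gene stood at percentile 80.5 of those. The 78 genes have short transcripts, with a median effective length (the number of positions a fragment can start from) of 839 nt against 2195 nt, and in expected counts, which are not divided by length, their median was 3374 against 3044. Cytosolic ribosomal protein genes, which serve the far larger ribosome pool outside mitochondria, had a median of 698 TPM over 82 genes (mean of both libraries). Nuclear genes of oxidative phosphorylation had 168 TPM over 84 genes, and the 13 mitochondrially encoded messages had 1829 TPM. In sum, the 78 genes took 0.287% of all TPM in replicate 2 and 0.274% in replicate 1, against 7.59% and 6.65% for the cytosolic ribosomal protein genes and 1.9% and 1.81% for nuclear oxidative phosphorylation. In a bulk sample, a lower share of cells and less RNA per cell cannot be told apart.

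The levels sat in a narrow band: 69 of the 78 genes lay between 10 and 100 TPM, where 40.8% of detected protein-coding genes lay. The 2 genes above it encode large subunit proteins. Mrpl17, for a protein with a bacterial counterpart (bL17m), had 154 TPM in replicate 2 and 164 TPM in replicate 1, and Mrpl52, for the mitochondria-specific mL52, had 145 and 128 TPM. The libraries put Mrpl17 and Mrpl52 first and second alike. The SD of log2 mean TPM over the 78 genes was 1.02, against 2.00 over all detected protein-coding genes. A narrow spread was not particular to them. Among detected genes it was 1.13 for cytosolic ribosomal proteins, 1.33 for nuclear oxidative phosphorylation and 0.75 for assembly factors of the mitochondrial ribosome.

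**Figure D1:**
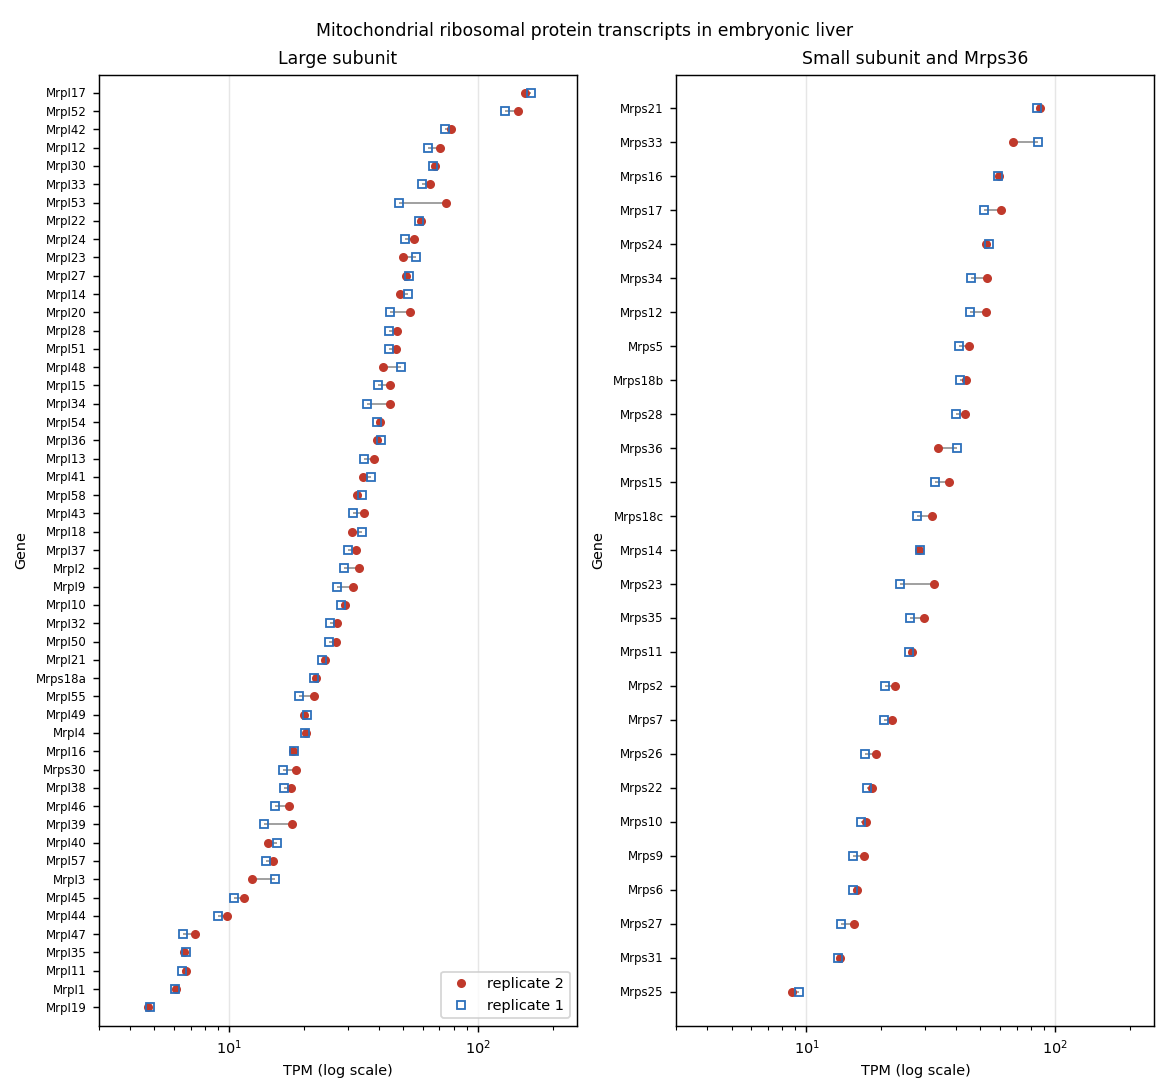
TPM of each of the 78 genes on a log axis, with filled red circles for replicate 2, open blue squares for replicate 1, and a grey line joining the pair. Genes of the large subunit stand on the left and those of the small subunit with Mrps36 on the right, each sorted by mean TPM. Most pairs lie close together; Mrpl53 (74.2 TPM in replicate 2 and 48.4 TPM in replicate 1) and Mrps23 (32.4 and 23.7 TPM) are the widest apart.

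Promoter sequences of 5 genes are shown because the 3 motifs searched for here recur in these genes and because they include the gene of the highest level and the 2 genes that differed most between libraries. Each is 300 bases of GRCm38.p6 around a RefSeq transcription start, 5′ to 3′ on the gene's own strand, and capitals mark matches on either strand to 3 motifs described below. The windows are Mrpl17 (chr7:105811038-105811337, minus strand), Mrpl32 (chr13:14612988-14613287, minus strand), Mrps12 (chr7:28741772-28742071, minus strand), Mrpl53 (chr6:83108858-83109157, plus strand) and Mrps36 (chr13:100744610-100744909, minus strand).
Mrpl17: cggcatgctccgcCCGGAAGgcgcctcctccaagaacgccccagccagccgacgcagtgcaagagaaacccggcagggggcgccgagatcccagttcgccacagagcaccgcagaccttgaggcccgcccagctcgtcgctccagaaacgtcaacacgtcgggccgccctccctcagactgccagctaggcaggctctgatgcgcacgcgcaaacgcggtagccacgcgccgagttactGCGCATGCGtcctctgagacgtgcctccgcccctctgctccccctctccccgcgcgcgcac
Mrpl32: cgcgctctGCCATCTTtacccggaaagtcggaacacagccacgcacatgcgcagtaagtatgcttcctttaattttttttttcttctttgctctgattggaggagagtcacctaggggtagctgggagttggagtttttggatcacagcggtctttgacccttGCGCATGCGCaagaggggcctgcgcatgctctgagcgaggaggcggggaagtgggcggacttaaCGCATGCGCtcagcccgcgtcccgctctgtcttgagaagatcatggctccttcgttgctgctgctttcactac
Mrps12: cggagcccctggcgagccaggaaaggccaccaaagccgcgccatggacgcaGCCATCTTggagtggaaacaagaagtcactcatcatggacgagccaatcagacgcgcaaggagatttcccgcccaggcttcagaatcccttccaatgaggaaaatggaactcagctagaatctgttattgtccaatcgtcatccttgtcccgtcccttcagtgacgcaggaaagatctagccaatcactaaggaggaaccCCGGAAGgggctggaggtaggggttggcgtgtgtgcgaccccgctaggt
Mrpl53: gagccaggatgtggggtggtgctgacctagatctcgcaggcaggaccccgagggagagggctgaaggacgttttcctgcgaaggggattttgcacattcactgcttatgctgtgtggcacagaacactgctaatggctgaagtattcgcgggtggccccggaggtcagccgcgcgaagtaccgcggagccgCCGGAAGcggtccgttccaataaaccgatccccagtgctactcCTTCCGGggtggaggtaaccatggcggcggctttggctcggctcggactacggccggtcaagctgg
Mrps36: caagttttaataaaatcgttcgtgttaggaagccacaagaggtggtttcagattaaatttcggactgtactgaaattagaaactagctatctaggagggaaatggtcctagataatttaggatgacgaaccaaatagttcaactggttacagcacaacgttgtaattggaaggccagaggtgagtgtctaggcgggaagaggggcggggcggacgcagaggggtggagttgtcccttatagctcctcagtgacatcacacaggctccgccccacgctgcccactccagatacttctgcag

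The 3 patterns were searched on both strands. The first is GCGCATGCG, of the type bound by NRF1, a regulator of nuclear genes for mitochondrial proteins. The next is CCGGAAG, of the type bound by Ets factors such as GABPA, and the last is AAGATGGC, of the type bound by YY1. Windows were found for 69 of the 78 genes. The NRF1-type letters stood in 7 of the 69 (10.1%), against 4.2% of 9184 detected protein-coding genes and 1.95% of all 27025 genes with a window. The Ets-type letters stood in 26 (37.7%, against 20.5% and 9.93%), and the YY1-type letters in 12 (17.4%, against 5.48% and 3.19%). In cytosolic ribosomal protein genes the shares were 4.84% for the NRF1 type, 40.3% for the Ets type and 9.68% for the YY1 type, and in nuclear oxidative phosphorylation genes 12.1%, 24.2% and 13.6%. A TATA-type pattern, TATAAA, stood in 5 (7.25%, against 9.14% and 15.7%). The Ets and YY1 patterns can share their letters AAG, and the reverse of the NRF1 pattern can overlap the forward one, as it does in Mrpl32.

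At least 1 of the 3 kinds was present in 38 of 69 genes (55.1%), against 27.7% of detected protein-coding genes. A pair of kinds together stood in 7 genes, namely Mrpl17, Mrpl22, Mrpl32, Mrps12, Mrps18a, Mrps18b and Mrps27, and no gene held all 3. In the sequences above, Mrpl17 carries the NRF1 type beginning 11 bases before the start and Mrpl32 carries it as 3 matches, 1 of them the overlapping reverse. Mrps12 carries the Ets type beginning at base 2 of the transcript, and Mrpl53 has that type on each strand. The window of Mrps36 holds none of the 3 patterns, which says only that these letters are absent from it. YY1-type matches lay past the start in 8 of 12 cases and NRF1-type matches in 0 of 11. Median GC content of the windows was 58.7% for the 69 genes, against 60.3% for detected protein-coding genes and 52.7% for all windows. Genes with Ets-type letters had a median of 41.3 TPM and those without had 26.1 TPM, but their median expected counts were 3271 and 3463, so the order on the TPM scale was not that of the counts.

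**Figure D2:**
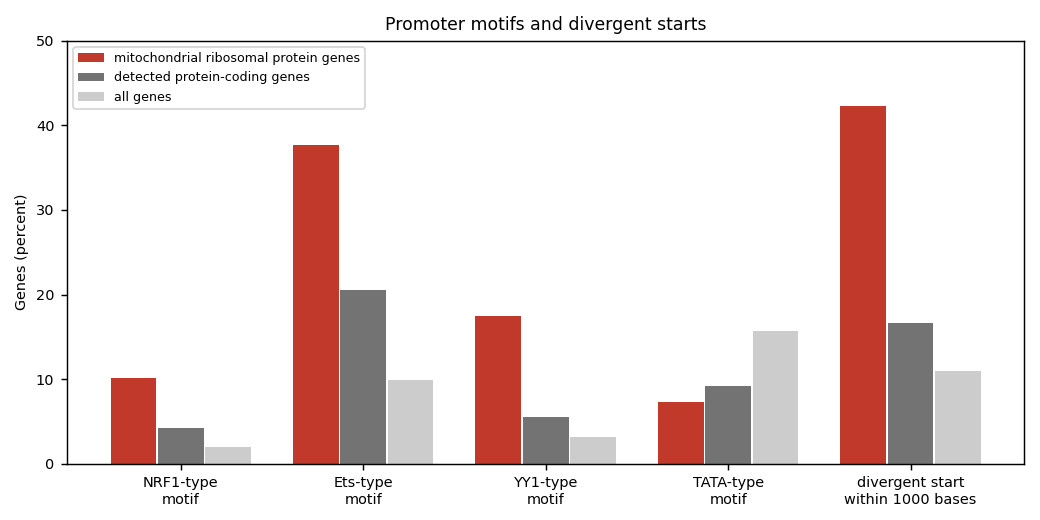
Percent of genes whose 300-base window holds each motif, and percent with a start of another protein-coding gene on the opposite strand within 1000 bases. Red bars are mitochondrial ribosomal protein genes and dark grey bars detected protein-coding genes. Light grey bars are all genes with a window (for the opposite-strand starts, labelled divergent, all protein-coding genes of the tables). The red bar is the tallest for the NRF1, Ets and YY1 types and for opposite-strand starts (42.3%), and the shortest for the TATA type (7.25%). Starts are the outermost GENCODE gene edges, by which some of the pairs with opposite-strand starts overlap rather than point apart.

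Many of these genes start close to a gene of the opposite strand. Starts were taken as the outermost annotated edge of each gene in GENCODE M21. By these edges, 33 of 78 (42.3%) had a protein-coding start on the opposite strand within 1000 bases. The share was 16.6% of detected protein-coding genes and 10.9% of all in the tables. Direction was not required, so pairs that run into each other and overlap were counted with pairs that point apart. By these edges, of the pairs named below, Mrps11 with Mrpl46, Mrpl36 with Ndufs6, Mrpl47 with Ndufb5 and Mrpl43 with Twnk overlap. The edges of Mrpl36, Mrpl46 and Mrpl47 lie outside their RefSeq windows, which were used for the motifs. For Mrpl36 the edge is at 73328513 and the window covers chr13:73330759-73331058. Counts, distances and overlaps thus depend on the starts taken, and they were not recomputed with RefSeq starts. A pair joins the subunits: Mrps11, for the small subunit protein uS11m, and Mrpl46, for the large subunit protein mL46. They start 412 bases apart by the GENCODE edges on chromosome 7. Mrps11 and Mrpl46 had 26.4 and 17.4 TPM in replicate 2, and 25.8 and 15.3 TPM in replicate 1. The following partners with known mitochondrial functions are examples chosen after their values were seen, and the functions of the 33 partners were not counted. By the GENCODE edges, Mrpl36 starts 29 bases from Ndufs6 (145 TPM in replicate 2 and 131 TPM in replicate 1). Mrpl47 starts 615 bases from Ndufb5 by them (132 and 121 TPM), and both partners are complex I genes. Mrps12 starts 172 bases from Sars2, the mitochondrial seryl-tRNA synthetase (7.41 and 6.76 TPM), and Mrpl43 starts 779 bases from Twnk, the mitochondrial DNA helicase (11.6 and 9.56 TPM). Sharing a region did not mean sharing a level: Mrpl49 had 20.1 TPM in replicate 2 and 20.5 TPM in replicate 1, while Fau, a cytosolic ribosomal protein gene 59 bases away, had 983 and 872 TPM. The partner was the higher gene by mean TPM for 7 of the 33. In both libraries 30 of the 33 partners were detected, against 53.7% of all protein-coding genes. The pair of Mrps11 and Mrpl46 is counted from each side. Neither count was made for other genes with such starts.

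Large subunit genes numbered 51, placed by published structures rather than by symbol (Mrps18a encodes mL66 and Mrps30 encodes mL65, both of the large subunit). Their median was 32.4 TPM in replicate 2 and 30.1 TPM in replicate 1, against 30.7 and 26.9 TPM for the 26 small subunit genes. The ratio of the medians was 1.06 in replicate 2 and 1.12 in replicate 1, and the SD of log2 TPM among the genes of a subunit was 1.11 for the large and 0.84 for the small. Genes for proteins with bacterial counterparts only had the highest median, 43.2 and 39.9 TPM over 19 genes. Those for proteins of all ribosomes had 31.1 and 29.0 TPM over 27 genes, and mitochondria-specific ones 26.8 and 23.7 TPM over 31 genes. The median effective transcript length was 548 nt for the bacterial class, 927 nt for the universal one and 891 nt for the mitochondria-specific one. In median expected counts the bacterial class was the lowest, with 3160 against 3558 and 3366 in the same order.

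After Mrpl17 and Mrpl52, the highest levels belonged to genes of both subunits. Mrps21, for the small subunit protein bS21m, had 87.0 TPM in replicate 2 and 84.4 TPM in replicate 1. Mrps33, for the mitochondria-specific mS33, had 67.6 and 85.0 TPM, and Mrpl42, for mL42, had 77.7 and 74.0 TPM. Mrpl12, whose product forms the flexible stalk that recruits translation factors, had 70.3 and 63.2 TPM. Mrpl30 had 66.9 and 65.7 TPM, Mrpl33 had 64.3 and 59.6 TPM, Mrpl53 had 74.2 and 48.4 TPM, and Mrps16 had 59.4 and 58.6 TPM. By TPM replicate 2 was the higher of the libraries in 8 of these 10 genes, the exceptions being Mrpl17 and Mrps33, and 70.3% of protein-coding genes stood higher there on that scale. By scaled counts, 5 of the 10 were lower in replicate 2.

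The 10 lowest genes held 8 of the large subunit and 2 of the small, where the 10 highest held 7 and 3 and the large subunit makes up 65.4% of the 78. Mrpl19, for bL19m, was the lowest, with 4.74 TPM in replicate 2 and 4.82 TPM in replicate 1. Mrpl1, whose product is part of the mobile stalk near the tRNA exit, had 6.11 and 6.08 TPM, and Mrpl11, at the base of the factor-binding stalk, had 6.70 and 6.49 TPM. Mrpl35 had 6.56 and 6.71 TPM, and Mrpl47, for the tunnel-exit protein uL29m, had 7.32 and 6.53 TPM. Mrps25 had 8.78 and 9.30 TPM and Mrpl44, related to RNase III enzymes, 9.82 and 9.00 TPM. Mrpl45, whose product ties the ribosome to the inner membrane, had 11.4 and 10.5 TPM, Mrps31 had 13.6 and 13.4 TPM, and Mrpl3 had 12.3 and 15.2 TPM. The highest gene stood 33.2-fold above the lowest by mean TPM.

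That order followed transcript length. Across the 78 genes, Spearman's rho between mean TPM and effective length was -0.75, against -0.43 across detected protein-coding genes, given as a description since TPM holds the length in its denominator. Expected counts per gene showed almost no such relation (rho 0.11), and spanned 8.06-fold from highest to lowest when scaled to each library's total. The median count stayed between 2899 and 3478 in all 4 length bands, namely 3153 under 500 nt (16 genes), 3478 from 500 to 1000 nt (36 genes), 3390 from 1000 to 2000 nt (20 genes) and 2899 from 2000 to 4000 nt (6 genes). The median level over the same bands was 58.7, 34.3, 17.8 and 6.62 TPM. Mrpl19, Mrpl35, Mrpl1 and Mrpl11, with effective lengths of 3538, 3495, 2755 and 2662 nt, ranked 78, 75, 77 and 76 of 78 by mean TPM, and 62, 43, 63 and 59 by mean count.

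**Figure D3:**
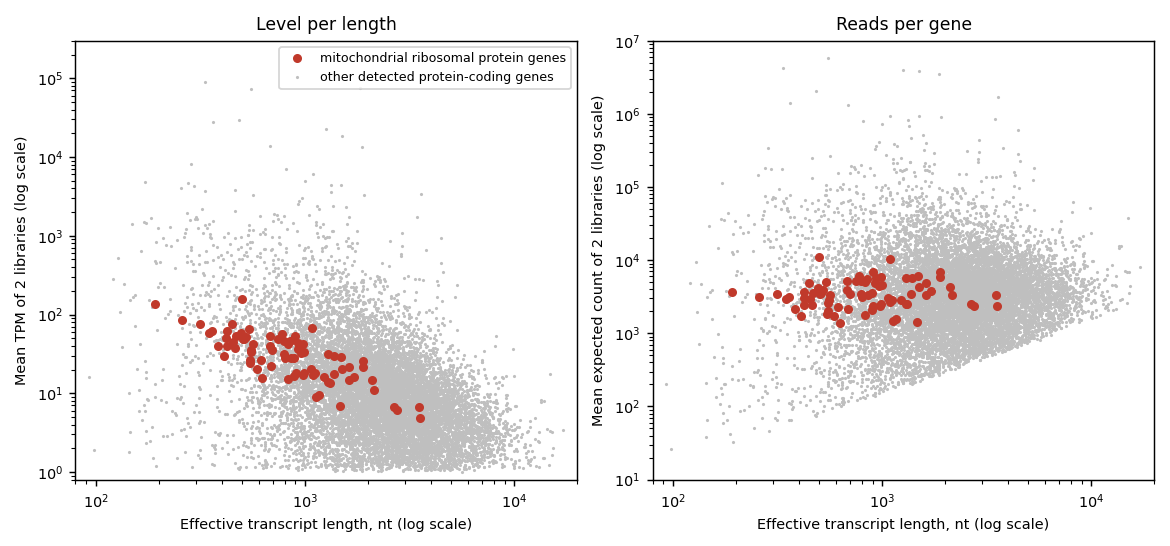
Mean TPM (left) and mean expected count (right) of 2 libraries against effective transcript length, all axes logarithmic. Red points are the 78 mitochondrial ribosomal protein genes and grey points the other detected protein-coding genes. The red points slope down on the left (rho -0.75) and lie flat on the right (rho 0.11).

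Proteins of the same ribosome that carry other symbols had levels within the range of the 78. Of a list of 6, 5 were found under their own symbol, and the other is Mrpl58 itself, the peptidyl-tRNA hydrolase that became part of the large subunit (32.8 TPM in replicate 2 and 34.3 TPM in replicate 1). Aurkaip1 had 60.9 and 60.9 TPM, Chchd1 had 47.9 and 43.3 TPM, Dap3 had 43.3 and 42.8 TPM, Gadd45gip1 had 22.8 and 24.0 TPM, and Ptcd3, the lowest, had 14.7 and 12.9 TPM. Genes of the machinery around the ribosome had lower medians on the TPM scale. The median was 11.7 TPM for 14 mitochondrial translation factors, led by the elongation factor Tufm (70.2 and 56.3 TPM), and 8.74 TPM for 25 assembly factors, led by Malsu1 (27.7 and 31.1 TPM) and Rbfa (31.3 and 27.0 TPM). For 19 mitochondrial aminoacyl-tRNA synthetases it was 10.2 TPM, with Lars2 far above the rest at 280.0 and 266 TPM, and for 11 genes of mitochondrial DNA transcription and replication 9.78 TPM, led by Ssbp1 (35.6 and 32.5 TPM). These lists have longer transcripts, with median effective lengths of 1771, 1371, 2031 and 1695 nt in that order, and their median expected counts were 3014, 1906, 2603 and 2993, against 3374 for the 78 genes.

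The libraries gave nearly the same values. Counts were scaled by TMM, a normalization that sets the bulk of genes equal, and the log2 ratio of replicate 2 to replicate 1 was formed after adding 0.5. Its median was -0.03 over the 78 genes and 0.00 over protein-coding genes, and 46 of the 78 were lower in replicate 2 (59.0%, against 49.7% of the 13748 protein-coding genes with a mean count of at least 50). On the deposited TPM scale the median ratio was 0.09, against 0.11 for protein-coding genes, and 58 of the 78 were higher in replicate 2 (74.4%, against 70.3% of protein-coding genes), so the side on which most genes fell depended on the scale. None of the 78 lay beyond 1.5-fold on the count scale, where 4.39% of protein-coding genes did. More than 25% apart, counted from the lower library, lay 2 of 78 (2.56%), Mrpl53 and Mrps36, against 15.5% of protein-coding genes.

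The biological coefficient of variation, which is the spread between libraries beyond counting error, was 0.0609 over the 78 genes. It was 0.114 over the 7258 protein-coding genes with mean counts in the same range, 0.0776 over cytosolic ribosomal protein genes and 0.0617 over nuclear oxidative phosphorylation genes. With 2 libraries these are descriptions. The libraries differed in acinar, muscle and immune markers as given above, and the part of those differences in the ratios was not tested. The authors' deposited interval around each TPM failed to overlap between libraries in 40 of 78 genes (51.3%, against 47.9% of protein-coding genes). Of the 40, 34 were higher in replicate 2 and 6 lower. The same split was not counted over protein-coding genes, of which 70.3% were higher in replicate 2 by deposited TPM, whether or not their intervals overlapped. Those intervals hold the uncertainty of one library's fragments and not the spread between samples.

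Mrpl53, for a large subunit protein specific to mitochondria, had the highest ratio. It had 4004 expected counts in replicate 2 and 3226 in replicate 1, which became 4240 and 3046 after scaling, a log2 ratio of 0.48. The gene (chr6:83109040-83109939, plus strand) lies inside the annotated read-through gene Gm42688 on the same strand, at 2.48 TPM in replicate 2 and 1.81 TPM in replicate 1 (920 and 823 counts), and opposite Ccdc142os (1.64 and 1.99 TPM), so its count is uncertain to the extent that fragments were shared. The posterior SD of the Mrpl53 count, which reflects how uncertainly fragments were assigned, was 7.59 counts in replicate 2 and 7.25 in replicate 1. Mrpl20, for bL20m, followed with 3840 and 3126 scaled counts (ratio 0.30), then Mrpl34 with 2548 and 2265 (0.17), Mrpl33 with 3257 and 3037 (0.10) and Mrpl9 with 5923 and 5537 (0.10).

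Mrps36 had the lowest ratio. Despite its name, its product is now known as a subunit of the 2-oxoglutarate dehydrogenase complex of the citric acid cycle and not a ribosomal protein. It had 33.7 TPM in replicate 2 and 40.4 TPM in replicate 1, and 2096 and 2768 scaled counts, a log2 ratio of -0.40 (chr13:100735955-100744659, minus strand). Mrpl23, for a protein at the tunnel exit, had 3142 and 3917 scaled counts (-0.32), Mrps33 had 3073 and 3721 (-0.28), Mrpl14 had 2758 and 3272 (-0.25) and Mrpl41 had 2585 and 3060 (-0.24). These 5 genes had mean effective lengths of 460, 467, 315, 421 and 555 nt, but genes at the other extreme were as short, with 424 nt for Mrpl53, 504 nt for Mrpl20, 425 nt for Mrpl34 and 359 nt for Mrpl33. Across the 16 genes under 500 nt the median ratio was -0.11, against -0.03 for protein-coding genes of that length.

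**Figure D4:**
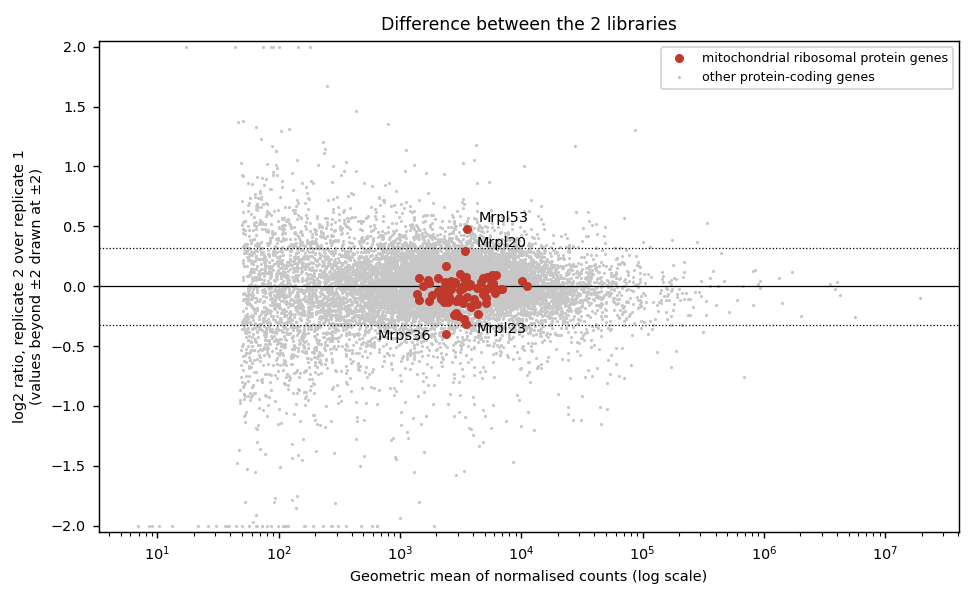
Log2 ratio of replicate 2 over replicate 1 against the geometric mean of the scaled counts, on a log axis, for protein-coding genes with a mean count of at least 50. Red points are the 78 mitochondrial ribosomal protein genes, grey points the others, and dotted lines mark a 25% difference. The red points lie between the lines except Mrpl53 (0.48) and Mrps36 (-0.40).

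Around the ribosome, the factors known to regulate nuclear genes for mitochondrial proteins all lay above their replicate 1 level (9 of 9 genes, median ratio 0.22 in log2), where the median of the 78 genes was -0.03 and 50.3% of protein-coding genes lay above. These factors have long transcripts, with a median effective length of 2255 nt, and with the length trend of protein-coding genes removed their median was 0.17. Myc had 28.8 TPM in replicate 2 and 18.9 TPM in replicate 1 (ratio 0.47), and Yy1 had 15.8 and 12.5 TPM (0.22). Nrf1 had 19.9 and 17.9 TPM (0.06) and Gabpa had 10.4 and 9.66 TPM (0.05). Mitochondrially encoded messages had lower counts in replicate 2 for 11 of 13 genes (median ratio -0.16), against 49.7% of protein-coding genes. Of the 14 translation factors 11 were higher in replicate 2 (median 0.06), of the 25 assembly factors 12 (median -0.01), and of the 19 synthetases 7 (median -0.03).

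The 3 relatives of bacterial S18 have separate genes and separate places in the ribosome. Mrps18b (mS40, small subunit) had 43.8 TPM in replicate 2 and 41.2 TPM in replicate 1, and Mrps18c (bS18m, small subunit) had 31.9 and 27.8 TPM. Mrps18a (mL66, large subunit) had 22.4 and 22.0 TPM. The order Mrps18b, Mrps18c, Mrps18a held in both libraries with no overlap of values. Their expected counts ran in another order, with 4628 and 5354 for Mrps18b, 1989 and 2361 for Mrps18a, and 1647 and 1813 for Mrps18c, whose effective length is the shortest at 410 nt against 827 and 689 nt.

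Among the 59 genes with at least 2 annotated transcripts, the same transcript led in both libraries in 59 of 59, against 6021 of 6339 protein-coding genes at 4 TPM or more. A single transcript held at least 90% of the gene's TPM in both libraries in 24 (40.7%, against 24.6%). That share was 49.2% for cytosolic ribosomal protein genes and 60% for nuclear oxidative phosphorylation genes. The leader stayed under 50% in both libraries in 6 genes (10.2%, against 20.3%). Mrpl24-201 held 30.5% in replicate 2 and 31.9% in replicate 1 with the rest spread over other transcripts, and Mrpl17-205 held 38.4% and 42.6%, closely followed by Mrpl17-204 with 38.2% and 35.9%. Mrps11-201 held 44.8% and 40.0%, Mrps10-204 held 44.9% and 45.8%, Mrpl55-203 held 45.3% and 40.8%, and Mrpl58-202 held 49.4% and 42.4%.

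Some shares differed widely between libraries. Mrpl20-201 held 93.4% of its gene's TPM in replicate 2 and 64.4% in replicate 1, where the noncoding Mrpl20-204 held 33.9% (5.43% in replicate 2). Mrps23-201 held 47.6% and 66.5%, and Mrps23-202 held 25.7% and 3.68%. Mrpl39-201 held 71.5% and 88.2%, the rest being the retained-intron form Mrpl39-202. Mrpl3-206 was listed at 0 in replicate 2 and held 22.7% in replicate 1. These shares set the effective length of the gene, which differed by over 10% between libraries in 6 genes. For Mrps23 it was 699 nt in replicate 2 and 909 nt in replicate 1, so its TPM ratio was 0.45 on the log2 scale while its count ratio was -0.03. For Mrpl39 the lengths were 1564 and 1871 nt, the TPM ratio 0.38 and the count ratio 0.02. For Mrpl3 they were 1419 and 1167 nt, the TPM ratio -0.31 and the count ratio -0.13. The wide gaps of Mrps23 and Mrpl39 on the TPM scale were thus absent on the count scale.

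**Figure D5:**
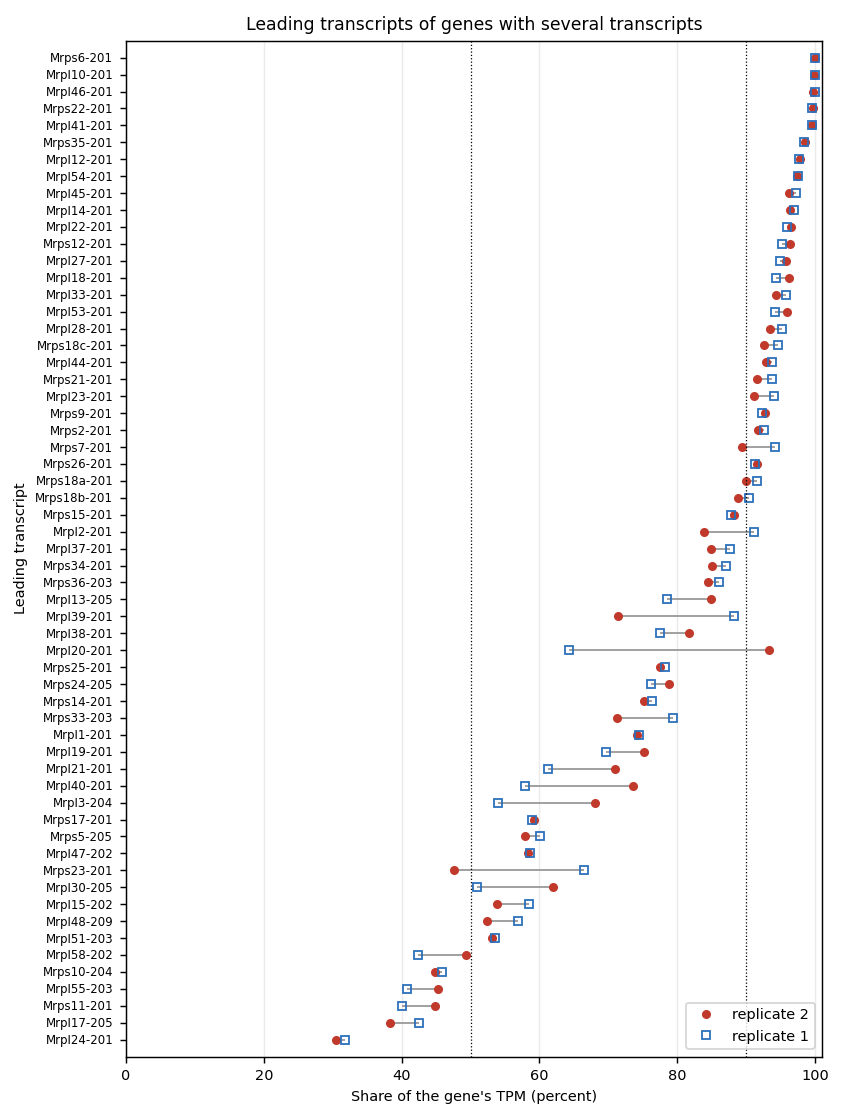
Share of the gene's TPM held by the leading transcript of each of the 59 genes with several annotated transcripts, with filled red circles for replicate 2 and open blue squares for replicate 1, sorted by mean share. Dotted lines mark 50% and 90%. Most pairs lie close together, and the pair for Mrpl20-201 is the widest, at 93.4% in replicate 2 and 64.4% in replicate 1.

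Transcripts that the annotation types as coding held 85.8% of the TPM of the 78 genes in replicate 2 and 84.3% in replicate 1, against 91.7% in each library over all protein-coding genes. Transcripts marked for nonsense-mediated decay held 3.96% and 4.27%, against 0.882% and 1.01% over protein-coding genes, and without Mrpl32, whose only quantified transcript is of that type, 3.04% and 3.37%. Retained-intron forms held 7.71% and 8.52%, against 4.6% and 4.98%. The leader was of a type other than protein-coding in 9 of the 59 genes (15.3%, against 7.24%). Retained-intron forms led in Mrps26 (91.5% in replicate 2 and 91.4% in replicate 1), Mrps25 (77.6% and 78.3%), Mrps33 (71.2% and 79.4%), Mrps5 (58.0% and 60.1%) and Mrpl51 (53.1% and 53.6%). A decay-type form led in Mrps14 (75.1% and 76.3%) and Mrpl3 (68.0% and 54.0%), and a processed form in Mrpl15 (53.8% and 58.5%) and Mrpl47 (58.4% and 58.7%). A TPM share is per length, so a short form can lead while a longer one holds more of the fragments. In each of these 9 genes the leader was shorter than the most abundant coding form. In replicate 2 the lengths were 340 nt for Mrps25-201 and 5848 nt for the coding Mrps25-203, which held 14.8% of the TPM. They were 832 nt for Mrps26-201 and 4053 nt for the coding Mrps26-202, which held 8.5%. Fragments per transcript were not compared, and the lengths alone do not tell which form held more. The shares are estimates that split fragments between overlapping forms, and the types come from GENCODE M21, a later release than the one the authors quantified.

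Near-identical copies touched few of these genes. The posterior SD of the count, a measure of how uncertainly fragments were assigned, was 0 in both libraries for 64 of 78. That number was not set against all protein-coding genes. The largest posterior SD was that of Mrpl23, at 53.4 counts in replicate 2 and 52.8 in replicate 1, or 1.80% and 1.27% of its count. Its processed pseudogene Mrpl23-ps1 (chr2:74591330-74591909) was itself given 1074 and 1124 counts, so how fragments divide between the gene and the copy is uncertain. The other 4 pseudogenes with such symbols had 0 to 3 counts in replicate 2 and 0 to 8 in replicate 1. On the genome, 36 of the 78 genes are overlapped by no other annotated gene, 13 by one on the same strand and 36 by one on the opposite strand. Overlapping neighbours on the same strand with over 1000 counts in each library were Nme3 at Mrps34 (1718 in replicate 2 and 2172 in replicate 1) and Urgcp at Mrps24 (2074 and 2285).

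A second quantification by the authors on the build mm9 gave the same genes other ranks. The authors' mean RPKM (read density per kilobase and depth, 2 values per gene that the file does not tie to a library) correlated with mean mm10 TPM at Spearman's rho 0.70 over the 78 genes and 0.93 over 11470 protein-coding genes, as a description across genes. After centring on protein-coding genes, 18 of the 78 were over 2-fold lower on mm9 and 1 was over 2-fold higher, 24.4% in all, against 8.16% of protein-coding genes. Among genes with effective lengths under 1000 nt these shares were 32.7% of 52 and 28.4% of 1639. Mrpl23 differed most, with a log2 difference of -3.16 (rank 15 by mm10 TPM and 76 by mm9 RPKM), followed by Mrpl52 (-2.94, ranks 2 and 43), Mrpl22 (-2.41), Mrps33 (-2.28) and Mrpl48 (-1.91). Mrpl11 was the gene above, at 1.39. The difference ran with effective length at rho 0.74 over the 78 genes and 0.67 over protein-coding genes. Part of that relation is built in, since TPM holds the same length in its denominator. Unit and annotation changed along with the build, so their parts in the difference cannot be told apart.

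Splicing was read from the authors' junction counts, also on mm9. All 78 genes had junctions, 2119 in all with 448983 reads, and 96.6% of the reads joined 2 exon ends that the deposited exon table lists for the gene. Another 1.34% joined an annotated intron shifted equally at both ends by up to 8 bases. Of the rest, 14 junctions had at least 50 reads. The most read was in Mrpl42 (chr10:94963157-94964539, minus strand), with 988 and 973 reads in the columns named R1 and R2, which the labels do not tie to a library, or 62.4% of the reads of the gene's most used junction, with 1 of its ends annotated. In Mrps34 a junction (chr17:25033505-25033572, plus strand) had 636 and 445 reads, and the authors mark it as annotated although the exon table lists neither end for this gene. A junction placed with Mrpl33 followed with 281 and 307 reads (chr5:32000451-32004198, plus strand). The authors mark it as annotated too, and the exon table lists 1 of its ends for this gene. It lies far from the gene's most read junction (chr5:31918861-31924749), so whether it belongs to Mrpl33 is uncertain. Mrpl57 had a junction with 192 and 174 reads (chr14:58445151-58445345, plus strand).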

How the data were processed

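Poly(A)+ RNA of embryonic liver was measured in 2 libraries of 1 group. Per the file headers and labels, the authors quantified each library on mm10 with GENCODE M4 and deposited, per gene, an expected count, a TPM and an FPKM value with an interval, and, per transcript, the percent of the gene's TPM. For mm9 with ENSEMBL 65 they deposited 2 RPKM values per gene and a junction read count per replicate. The aligner and quantifier are not stated in the labels or headers used.

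Symbols, biotypes and positions came from GENCODE M21: 42462 of 43346 identifiers matched by gene and 146 by transcript, Mrpl33 among the 146. Rows naming no mouse gene, mostly spike-ins (2.01% of counts in replicate 2 and 2.79% in replicate 1), were left out of library sizes. Expected counts were rounded and scaled by TMM in edgeR 4.0.16 (R 4.3.3), with DESeq2 1.42.0 size factors as an alternative; ratios of genes under a mean count of 10 were not used. Simulated counts with known folds were recovered. The coefficient of variation came from edgeR's common dispersion. Promoter windows were RefSeq's on GRCm38.p6, and coordinates were never converted between builds. Python 3.11.15 with pandas 2.3.3 and scipy 1.17.1 did the rest.

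With 1 group and 2 libraries, no test was made; the SD over libraries may be partly technical. The genes and comparison lists were chosen with earlier results of these data known. Named in full are the 10 highest and 10 lowest genes by TPM, the 5 highest and 5 lowest ratios, genes whose leading transcript is under 50% of the TPM, the 5 genes that differ most between builds, Mrps18a, Mrps18b, Mrps18c and Mrps36, and up to 4 genes of each list. The subunit of each protein was assigned from published structures. Alternatives changed the unit, the scaling, filters, thresholds, the subunit assignment, the motif and the libraries used.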

Additional observations from a re-analysis of the deposited data

How the results depend on the processing

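Results from both libraries were recomputed under other settings. The median level was 28.8 to 32.1 TPM in single libraries, and 22.4 as counts scaled to each library's total without length. The summed share was 0.196% of expected counts and 0.303% of TPM with spike-ins and mt-Atp8 left out. The median log2 ratio, -0.03, was 0.085 on deposited TPM, 0.026 with total counts and 0.032 with the length trend removed, so its sign is not settled; the TPM value moved by more than the replicate spread of 0.09. On deposited TPM 1 gene lay beyond 1.5-fold, and 2 lay over 25% apart on counts. The large over small subunit ratio, 1.09, became 1.16 by the letter in the symbol and 1.06 to 1.12 in single libraries. Genes with a leading transcript at 95% numbered 12, and 25 to 28 had one at 90% in single libraries. The correlation between builds was 0.67 to 0.72 in single libraries. The ratios of the 10 named genes kept their sign with DESeq2 size factors, deposited TPM, total counts, a larger added count and the length trend removed. Leaving out a library leaves no ratio between libraries, and no paired analysis was possible because the study has 1 group. Every gene had over 1000 counts in each library, and 2 libraries of one group give no test between groups. Intervals on counts cover counting error only.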
